A study of Mus musculus with 48 samples.

Results

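The interferon-stimulated genes described here are 36 mouse genes that type I interferon is known to induce, taken by gene name from a bulk RNA sequencing table of hippocampal microglia with 48526 genes. All 36 were in the table. C57BL/6 mice received a single whole-brain dose of 8 Gy, or a sham procedure, on postnatal day 21 and were killed 2 h, 6 h, 1 day or 1 week later. Each of the 8 groups had 6 animals and each animal gave 1 library, so 48 libraries were compared, and every time point had its own sham animals. No transgene, drug or second treatment is named for any group. Microglia, the resident macrophages of the brain, were isolated by flow sorting on the chemokine receptor Cx3cr1, which monocytes and perivascular macrophages can carry as well.

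Type I interferons are secreted proteins that bind the receptor pair Ifnar1 and Ifnar2. The receptor activates the kinases Jak1 and Tyk2, which phosphorylate Stat2, and Stat2 joins Irf9 in a complex that binds interferon-stimulated response elements in promoters. The induced genes encode RNA sensors, RNA-degrading and nucleotide-modifying enzymes, ubiquitin-like modifiers, membrane restriction factors and further signalling proteins. In microglia they are known as a set that is induced together after viral infection, nucleic acid sensing and injury.

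Promoter sequence was examined first, for the binding element of the complex of Stat2 and Irf9. The genes were selected by name as induced by type I interferon, which acts through this element. Its share among them is therefore not independent of the selection. RefSeq windows of build GRCm38.p6, running from 250 bases before to 50 bases after a transcript start, were found for 30 of the 36 genes. For 22 of them that start lay within 50 bases of the deposited gene start, and for Slfn5 it lay 753 bases away. The longer element, GAAA followed after any 2 bases by GAAA and searched on both strands, stood in the window of 15 of the 30 genes (50%) and in 3.44% of all 32851 windows. The shorter element TTCNNNGAA, known from interferon gamma targets, stood in 8 of the 30 windows, and in 8.30% of all windows. It overlapped the longer element at 2 places. In 7 genes the longer element occurred at 2 or more places, which could overlap. The 5 sequences below are the 250 bases before the start of 4 genes that hold the element in different numbers and of 1 that does not, each 5′ to 3′ along the gene with the matched element in capitals. The windows lie at chr19:34583279-34583528 on the plus strand (Ifit3), chr12:26456453-26456702 on the minus strand (Rsad2), chr7:104465194-104465443 on the minus strand (Trim30a), chr4:156200819-156201068 on the minus strand (Isg15) and chr11:83064862-83065111 on the plus strand (Slfn2).
Ifit3: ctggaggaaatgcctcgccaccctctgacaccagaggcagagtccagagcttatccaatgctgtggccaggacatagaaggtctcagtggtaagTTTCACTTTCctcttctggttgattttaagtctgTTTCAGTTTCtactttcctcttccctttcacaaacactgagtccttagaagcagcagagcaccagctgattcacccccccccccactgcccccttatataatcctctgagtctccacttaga
Rsad2: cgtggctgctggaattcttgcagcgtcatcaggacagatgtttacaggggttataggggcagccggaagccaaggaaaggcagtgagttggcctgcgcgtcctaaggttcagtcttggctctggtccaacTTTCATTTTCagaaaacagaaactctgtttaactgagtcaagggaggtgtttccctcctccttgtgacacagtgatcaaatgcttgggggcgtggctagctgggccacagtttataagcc
Trim30a: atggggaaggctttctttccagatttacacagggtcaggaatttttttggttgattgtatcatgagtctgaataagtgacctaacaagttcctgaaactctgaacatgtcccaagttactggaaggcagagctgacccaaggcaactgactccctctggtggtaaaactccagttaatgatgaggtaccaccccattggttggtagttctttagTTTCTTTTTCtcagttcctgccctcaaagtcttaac
Isg15: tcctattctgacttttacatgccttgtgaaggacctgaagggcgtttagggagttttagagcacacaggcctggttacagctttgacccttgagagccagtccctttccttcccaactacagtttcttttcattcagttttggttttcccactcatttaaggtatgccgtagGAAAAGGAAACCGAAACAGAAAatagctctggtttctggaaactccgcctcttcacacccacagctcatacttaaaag
Slfn2: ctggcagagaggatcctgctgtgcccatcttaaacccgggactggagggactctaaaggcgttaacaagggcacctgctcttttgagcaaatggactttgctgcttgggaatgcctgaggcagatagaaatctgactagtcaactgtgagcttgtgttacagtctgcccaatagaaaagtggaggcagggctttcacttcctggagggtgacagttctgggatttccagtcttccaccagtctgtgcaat
Counted from the transcript start, the matches began at -156 and -122 in Ifit3, at -120 in Rsad2 and at -36 in Trim30a. In Isg15 3 overlapping matches began at -78, -72 and -66. Slfn2 held no match in its window, and its RNA rose at 3 of the 4 times. Among genes with a window, the element was present in 7 of the 14 that rose at 1 day and in 5 of the 8 that rose at no time.

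Levels are given as RPKM, which is reads per kilobase of gene span, introns included, and per 1000000 reads on genes. Summed levels of several genes are given as RPM, reads per 1000000 reads on genes. Changes are the irradiated minus the sham mean of log2(RPKM + 1) with its standard error (SE), which understates the change of genes with low levels. Adjusted p values are Benjamini-Hochberg values from limma over all 10132 genes that reached an RPKM of 1 in at least 6 libraries, with a threshold of 0.05. Of the 36 genes 31 passed this filter. The 5 that did not were Oasl1, Cmpk2, Herc6, Rtp4 and Ifi44, and several of the 31 passed mainly through irradiated libraries. Ifit1, for example, reached an RPKM of 1 in 1 sham and 12 irradiated libraries, and Sp100 in 0 sham and 9 irradiated libraries. The libraries held 175382 to 3856777 reads on genes, and 3 of them had under 1000000: sham 1 day library 6 (175382), irradiated 2 h library 2 (395761) and sham 6 h library 4 (731819).

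Summed over the 36 genes, the reads of irradiated libraries were highest at 1 day. At 1 day the 6 irradiated libraries held 2860, 3095, 2329, 3296, 3175 and 3469 RPM (libraries 1 to 6), and the 6 sham libraries of that day held 1468, 1410, 1280, 1396, 1234 and 1454 RPM. The lowest irradiated library thus lay above the highest sham library, and the ratio of the means was 2.21. At 6 h the irradiated libraries held 2281, 2441, 1944, 1565, 2077 and 1462 RPM and the sham libraries 1549, 1122, 1788, 1302, 1166 and 1427 RPM, so the groups overlapped and the ratio was 1.41. At 2 h irradiated libraries 1 to 3 held 2246, 1837 and 1963 RPM, above every sham library of that time, and irradiated libraries 4 to 6 held 1039, 1367 and 1421 RPM, within the sham range of 1024 to 1492 RPM. At 1 week the ratio was 1.19 and the groups overlapped, with irradiated libraries between 1339 and 1714 RPM and sham libraries between 1114 and 1505 RPM. These sums are a description, since Lgals3bp, Irf9 and Samhd1 alone gave 27.7% of the reads. Because the libraries were made from sorted cells in bulk, more cells that transcribe a gene and more RNA per cell cannot be told apart in any of these values.

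**Figure D1:**
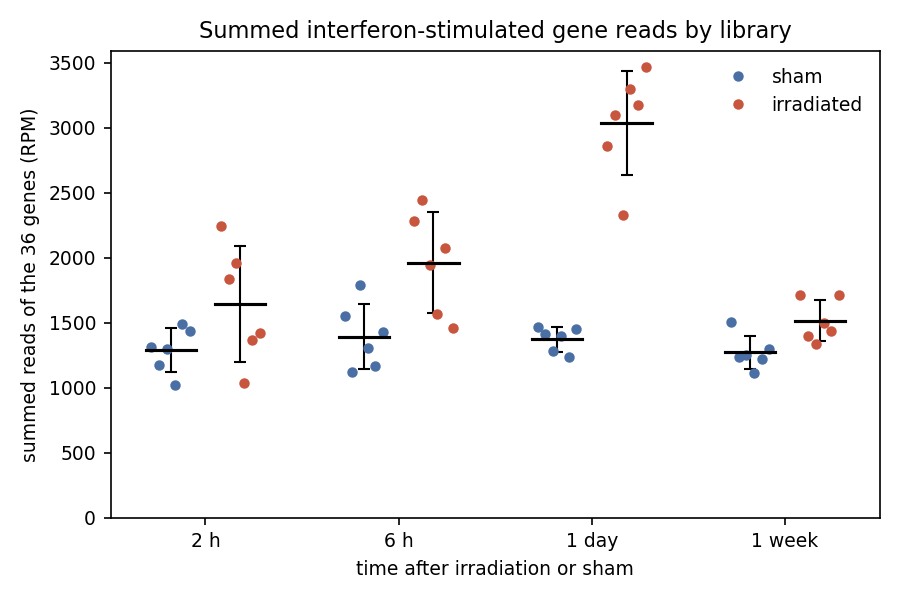
Summed reads of the 36 interferon-stimulated genes per 1000000 reads on genes (RPM), 1 point per library, by time and group; lines mark the mean and bars the SD of 6 libraries. At 1 day every irradiated library (2329 to 3469 RPM) sits above every sham library (1234 to 1468 RPM), and at 2 h the irradiated libraries fall into an upper and a lower set.

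Counted gene by gene, the rises were most frequent at 6 h and 1 day. At 2 h 6 of the 31 tested genes rose and 1 fell, beside 4.6% of all tested genes that rose and 4.02% that fell. At 6 h 14 rose and 2 fell, beside 12.9% and 8% of all tested genes. At 1 day 17 rose and 0 fell, beside 2.9% and 1.39%. At 1 week 0 rose and 0 fell by limma's adjusted p, beside 2.03% and 1.51%. By limma's unadjusted p, 9 of the 31 were under 0.05 at 1 week. The share of all tested genes under that threshold is not given here, so no result is read from this count. The median change of the 31 genes was 0.24 at 2 h, 0.55 at 6 h, 0.90 at 1 day and 0.22 at 1 week, and the medians over all tested genes were -0.01, 0.08, 0.00 and 0.05.

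Genes that rose at 1 day did not all do so at the other times. Ifit1, Ifit3, Mx1 and Slfn2 rose at 2 h, 6 h and 1 day. Irf7, Lgals3bp, Oas1a, Rsad2 and Sp100 rose at 6 h and 1 day, and Parp14 rose at 2 h and 1 day. Ifit2, Irf9, Oasl2, Parp9, Slfn5, Stat2 and Trim30a passed at 1 day and at no other time. Bst2, Ifi27l2a, Ifi35, Ifitm3 and Usp18 passed at 6 h alone, and Gbp2 at 2 h alone, although limma-voom on the recovered reads also called Bst2 (1.53, adjusted p = 0.012) and Ifitm3 (1.67, adjusted p = 0.029) at 1 day. Ifitm3 at 1 day also passed without sham 6 h libraries 1 to 4 (adjusted p = 0.029) or 5 and 6 (adjusted p = 0.026), and Ifi27l2a at 1 day with median-of-ratios scaling (0.91, adjusted p = 0.045). The 9 genes that rose at both 6 h and 1 day were 64.3% of the 14 and 52.9% of the 17. The same shares over all tested genes are not given here, so no result is read from this overlap. Of the 14, 3 passed at 6 h against sham 6 h libraries 5 and 6 alone (Ifit1, Ifit3 and Rsad2), as described below. The signed change was most positive at 1 day for 19 genes, at 6 h for 5, at 1 week for 4 (Samhd1 among them, with a negative change at each time) and at 2 h for 3. Such counts over all tested genes are not given here, and the 6 h changes rest on a divided sham group, described below. No result is read from the times of largest change.

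**Figure D2:**
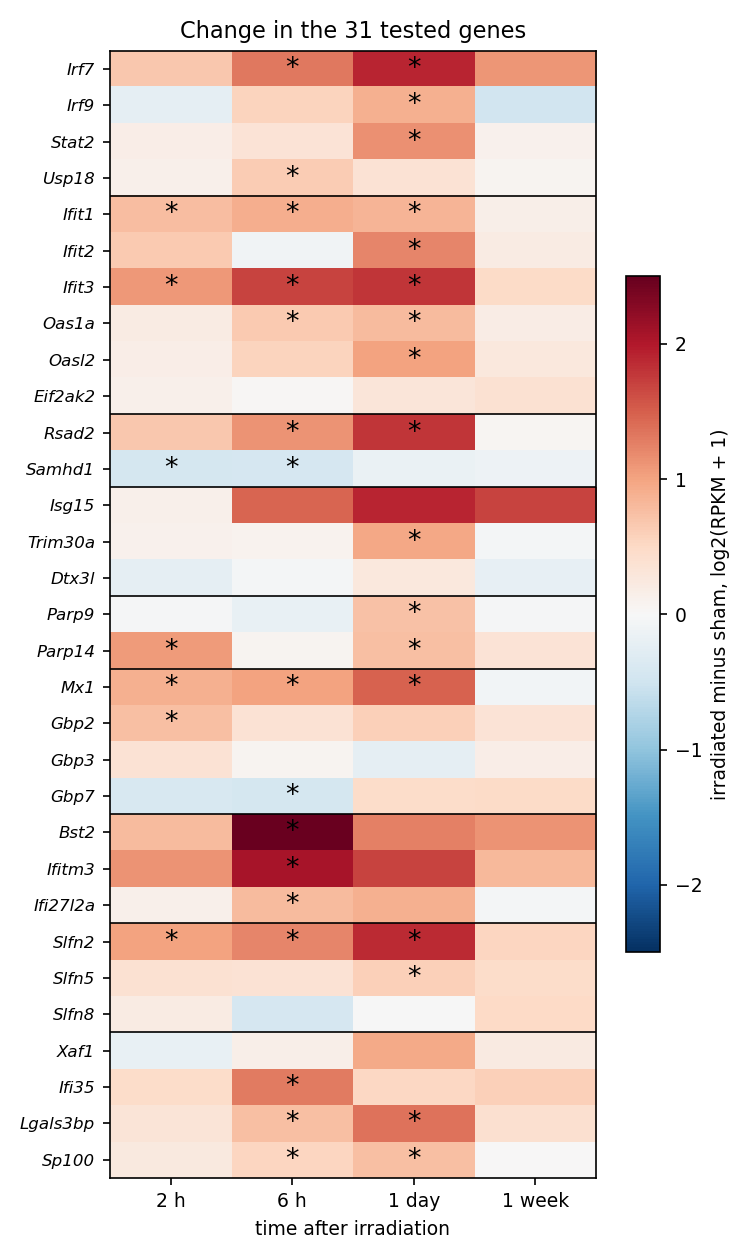
Irradiated minus sham change, log2(RPKM + 1), of the 31 tested interferon-stimulated genes at 4 times, grouped by role; an asterisk marks an adjusted p under 0.05. Most asterisks stand in the 6 h (16) and 1 day (17) columns and 0 in the 1 week column, and Samhd1 and Gbp7 carry the only asterisks on blue cells.

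The difference between the effects at adjacent times was tested in the same fit. From 1 day to 1 week the effect became smaller in 9 of the 31 genes, beside 2.89% of all tested genes, and larger in 0, beside 2.54%. These 9 were Irf9, Stat2, Ifit3, Rsad2, Trim30a, Parp9, Mx1, Slfn2 and Sp100. From 6 h to 1 day the effect became larger in 5 genes, Ifit2, Trim30a, Parp9, Parp14 and Gbp7, beside 1.71% of all tested genes, and smaller in 0, beside 2.67%. From 2 h to 6 h it became smaller in 1 gene, Parp14, beside 3.72%, and larger in 0, beside 5.56%. Without sham 6 h libraries 1 to 4, which are described next, the rise in effect from 6 h to 1 day passed in 1 gene, Trim30a, and the fall from 2 h to 6 h in 0.

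The 6 sham libraries of 6 h did not form 1 group. On the first principal component of all tested genes, which held 15.4% of the variance, sham 6 h libraries 1 to 4 lay between -43.06 and -36.01, among the 12 libraries of 2 h, which lay between -43.68 and -10.06. Sham 6 h libraries 5 and 6 lay at 11.34 and 15.99, and the 6 irradiated libraries of 6 h between 12.34 and 21.15. The labels give no batch. Against sham libraries 5 and 6 alone, 3 of the 31 genes rose at 6 h (Ifit1, Ifit3 and Rsad2) and 0 fell, beside 1.56% of all tested genes that rose. Against sham libraries 1 to 4 alone, 14 rose and 3 fell, beside 18.6% that rose. All 16 genes that passed with the 6 sham libraries kept their sign against libraries 5 and 6, and the median change of the 14 that rose was 1.06 with all 6 and 0.98 against those 2 libraries. Ifitm3 and Bst2 moved most between the sets. Ifitm3 changed by 2.92 against libraries 1 to 4 and by 0.36 against libraries 5 and 6, and Bst2 by 3.01 and 1.41. Against libraries 5 and 6 neither passed (adjusted p = 0.96 and 0.40), and Ifi35 changed by 0.97 (adjusted p = 0.057).

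**Figure D3:**
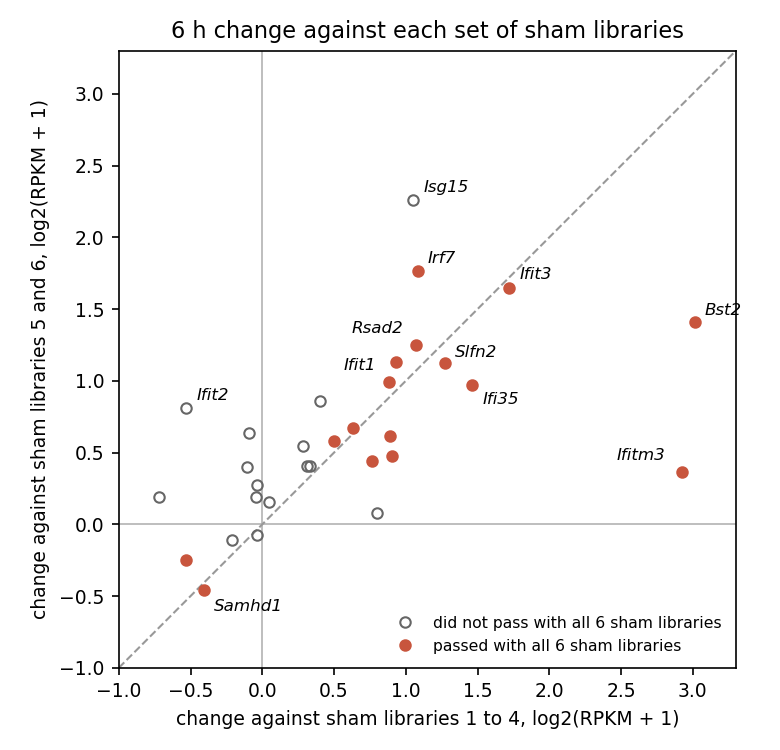
Change at 6 h in log2(RPKM + 1) of the 31 tested genes against sham libraries 1 to 4 (x axis) and against sham libraries 5 and 6 (y axis), with the line of equal change dashed. Ifit3 (1.72 and 1.65) and Rsad2 (1.07 and 1.25) lie near the line, and Ifitm3 (2.92 and 0.36) lies far below it.

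The signalling regulators Irf7, Irf9, Stat2 and Usp18 include the parts of the interferon-induced transcription complex. Irf7, a transcription factor that drives interferon genes and is itself induced by interferon (chr7:141262706-141266481, GRCm38), had an RPKM of 0 to 3.55 in sham 1 day libraries (median 1.02) and of 2.63 to 13.6 in irradiated ones (median 9.11). The groups overlapped by 1 irradiated library, and the change was 1.90 ± 0.41 (SE, adjusted p = 0.0023, limma). Its change at 6 h was 1.31 ± 0.41 (adjusted p = 0.019), with irradiated libraries from 2.43 to 34.4 around a median of 5.58 and sham libraries from 0.780 to 4.78. That call was lost without irradiated 6 h library 1 (the library at 34.4; change 0.89, adjusted p = 0.10), irradiated 6 h library 2 (1.16, adjusted p = 0.053) or sham 6 h library 3 (1.12, adjusted p = 0.067).

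Stat2, the activating part of the complex (chr10:128270576-128292849), was separated at 1 day alone. Its sham 1 day libraries ranged from 1.79 to 4.04 RPKM (median 2.99) and its irradiated ones from 7.06 to 9.09 (median 7.61), a change of 1.15 ± 0.19 (adjusted p = 4.5e-05). At 2 h, 6 h and 1 week the changes were 0.17, 0.35 and 0.11, none past the threshold, and the effect at 1 week was smaller than at 1 day by -1.04 ± 0.27 (adjusted p = 0.017). Irf9, the DNA-binding part of the complex, rose by 0.90 ± 0.23 at 1 day (adjusted p = 0.014), a call lost without irradiated 1 day library 2 (0.77, adjusted p = 0.065) or library 3 (0.82, adjusted p = 0.051). Irf9 shares positions with Rnf31, and Irf7 with Phrf1, so reads of these pairs could be split between them. Usp18, which removes Isg15 from proteins and restrains the interferon receptor, rose by 0.64 ± 0.18 at 6 h (adjusted p = 0.0081) and changed by 0.37 at 1 day without passing.

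Of the RNA-binding and RNA-degrading effectors, 2 of 6 tested rose at 2 h, 3 at 6 h and 5 at 1 day, beside 4.6%, 12.9% and 2.9% of all tested genes. Ifit3, a member of a protein family that binds foreign RNA (chr19:34583531-34588731), rose at each of these times. Its sham libraries of 2 h, 6 h and 1 day had medians of 0.769, 1.16 and 1.63 RPKM and its irradiated libraries medians of 3.29, 6.47 and 8.21. At 2 h the ranges overlapped (0.112 to 1.85 and 1.28 to 5.24), while at 6 h (0.535 to 1.78 and 2.5 to 8.30) and at 1 day (0.895 to 5.48 and 6.22 to 17.0) they did not. The changes were 1.08 ± 0.28, 1.70 ± 0.28 and 1.79 ± 0.28 (adjusted p = 0.0070, 1.3e-05 and 1.1e-05), and 0.48 ± 0.28 at 1 week (adjusted p = 0.36). Between 1 day and 1 week the effect fell by 1.31 (adjusted p = 0.039).

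Ifit1, which binds RNA whose cap lacks a methyl mark (chr19:34640871-34650009), had low levels throughout. Its irradiated libraries had medians of 1.05, 1.23 and 1.65 RPKM at 2 h, 6 h and 1 day, beside sham medians of 0.225, 0.170 and 0.439. At 2 h the sham libraries ended at 0.336 and the irradiated ones began at 0.380, and at 6 h they ended at 0.368 and began at 0.369. The changes were 0.77, 0.92 and 0.84, each ± 0.19 (adjusted p = 0.0038, 0.00033 and 0.0027). Ifit1 was listed with 613 reads over all 48 libraries, so each library's value rests on few reads.

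Ifit2, from the same cluster on chromosome 19, behaved otherwise. Its irradiated and sham medians were 1.31 and 1.72 RPKM at 6 h, a change of -0.08 ± 0.26, and 2.17 and 0.311 at 1 day, a change of 1.23 ± 0.26 (adjusted p = 0.0019) with 6 of 6 irradiated libraries above every sham library. The difference between these effects was 1.31 ± 0.37 (adjusted p = 0.033). Against sham 6 h libraries 5 and 6 alone the 6 h change of Ifit2 was 0.81 (adjusted p = 0.30). Oas1a, a synthetase of the oligoadenylates that activate RNase L, rose by 0.66 at 6 h and 0.79 at 1 day. Oas1a passed the filter through 7 irradiated and 0 sham libraries, and without the filter both calls were kept (adjusted p = 0.018 and 0.011). Against sham 6 h libraries 5 and 6 alone its 6 h change was 0.44 and did not pass. Fitted on the libraries of 1 day alone, its 1 day call was lost (adjusted p = 0.12). Oasl2, a related protein, rose by 1.01 at 1 day. Eif2ak2, the RNA-activated kinase PKR, changed by at most 0.39 and passed at no time. The Ifit, Oas, Gbp and Schlafen genes have close paralogs, and how reads matching several genes were counted is not given in the sources used here.

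Rsad2, called viperin, makes a nucleotide analogue that ends viral RNA chains (chr12:26442753-26456452). Its irradiated 1 day libraries ranged from 2.68 to 9.08 RPKM (median 5.42) and the sham ones from 0.254 to 3.33 (median 0.604). The sham library at 3.33 was library 6, the one with 175382 reads. The other 5 sham libraries lay below every irradiated one, and the change was 1.78 ± 0.27 (adjusted p = 8.6e-06). At 6 h Rsad2 rose by 1.13 ± 0.27 (adjusted p = 0.0022), at 2 h it changed by 0.67 (adjusted p = 0.13), and at 1 week by 0.05. The drop in effect from 1 day to 1 week, -1.73 ± 0.38 (adjusted p = 0.0042), was the most negative of the 31.

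Samhd1, which degrades deoxynucleotides, went the other way. It fell at 2 h by 0.43 ± 0.11 (adjusted p = 0.011), from a sham range of 2.02 to 3.40 RPKM (median 2.79) to an irradiated range of 0.938 to 2.42 (median 1.95), which overlap. It fell at 6 h by 0.42 ± 0.11 (adjusted p = 0.0065), from a sham range of 2.69 to 4.26 (median 3.21) to an irradiated range of 1.64 to 2.76 (median 2.32), with 5 of 6 irradiated libraries below every sham library. Without irradiated 2 h library 2 the 2 h change was -0.33 (adjusted p = 0.061). At 1 day and 1 week Samhd1 changed by -0.16 and -0.13, and neither passed.

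Of the ubiquitin-like modifier and the ubiquitin ligases, Trim30a was the gene that rose. Trim30a (chr7:104409025-104465193), a TRIM protein described in mice as a brake on inflammatory signalling, had sham 1 day values of 1.33 to 2.03 RPKM (median 1.44) and irradiated values of 3.07 to 5.26 (median 3.94). The groups did not overlap, and the change of 0.97 ± 0.10 (adjusted p = 1.4e-09) had the smallest p of the 31 genes at that time. At 2 h, 6 h and 1 week the medians of irradiated libraries were 1.68, 1.91 and 1.71 and those of sham libraries 1.35, 1.65 and 1.68, with changes of 0.10, 0.08 and -0.05 that did not pass. Its effect was larger at 1 day than at 6 h by 0.89 ± 0.14 (adjusted p = 0.00014) and smaller at 1 week than at 1 day by -1.02 ± 0.14 (adjusted p = 7.6e-06). Its paralogs lie beside it on chromosome 7, and reads shared with them are uncertain.

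Isg15, the ubiquitin-like protein that gives this gene class its name, did not pass at any time. Its sham 2 h libraries held 2, 6, 6, 0, 442 and 17 reads, and library 5 alone reached 139 RPKM while the other 5 lay between 0 and 7.29. At 1 day the sham libraries ranged from 0 to 19.6 RPKM (median 3.20) and the irradiated ones from 12.2 to 23.2 (median 15.0), and the change was 1.90 ± 0.70 (adjusted p = 0.13). At 6 h and 1 week the changes were 1.45 and 1.69 with the same SE. Dtx3l, a ubiquitin ligase that works with Parp9, changed by 0.27 at 1 day without passing.

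The ADP-ribosyltransferase genes Parp9 and Parp14 lie near each other on chromosome 16 and differed at 2 h. Parp14 (chr16:35832874-35871544) ranged from 1.51 to 2.30 RPKM (median 1.90) in sham 2 h libraries and from 3.56 to 6.72 (median 5.22) in irradiated ones, with no overlap. The change was 1.06 ± 0.14 (adjusted p = 2.6e-07), the smallest p of the 31 genes at 2 h. At 6 h the Parp14 groups overlapped, with medians of 2.15 and 2.46 and a change of 0.06, and the effect had become smaller by -1.0 ± 0.20 (adjusted p = 0.00094). Against sham 6 h libraries 5 and 6 alone the 6 h change was 0.40 (adjusted p = 0.39). The groups were separated again at 1 day, at 1.18 to 2.23 and 2.84 to 4.39, with a change of 0.76 ± 0.14 (adjusted p = 0.00023).

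Parp9 (chr16:35938470-35972605), whose span overlaps that of its partner gene Dtx3l, changed by -0.03 at 2 h and -0.18 at 6 h, and neither passed. At 1 day its sham libraries ranged from 2.22 to 3.67 RPKM (median 2.5) and its irradiated ones from 4.69 to 5.24 (median 5.13), a change of 0.73 ± 0.14 (adjusted p = 0.00047). Its effect at 1 day was larger than at 6 h by 0.90 ± 0.20 (adjusted p = 0.0054) and larger than at 1 week by a difference of similar size (-0.75 for 1 week minus 1 day, adjusted p = 0.019).

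**Figure D4:**
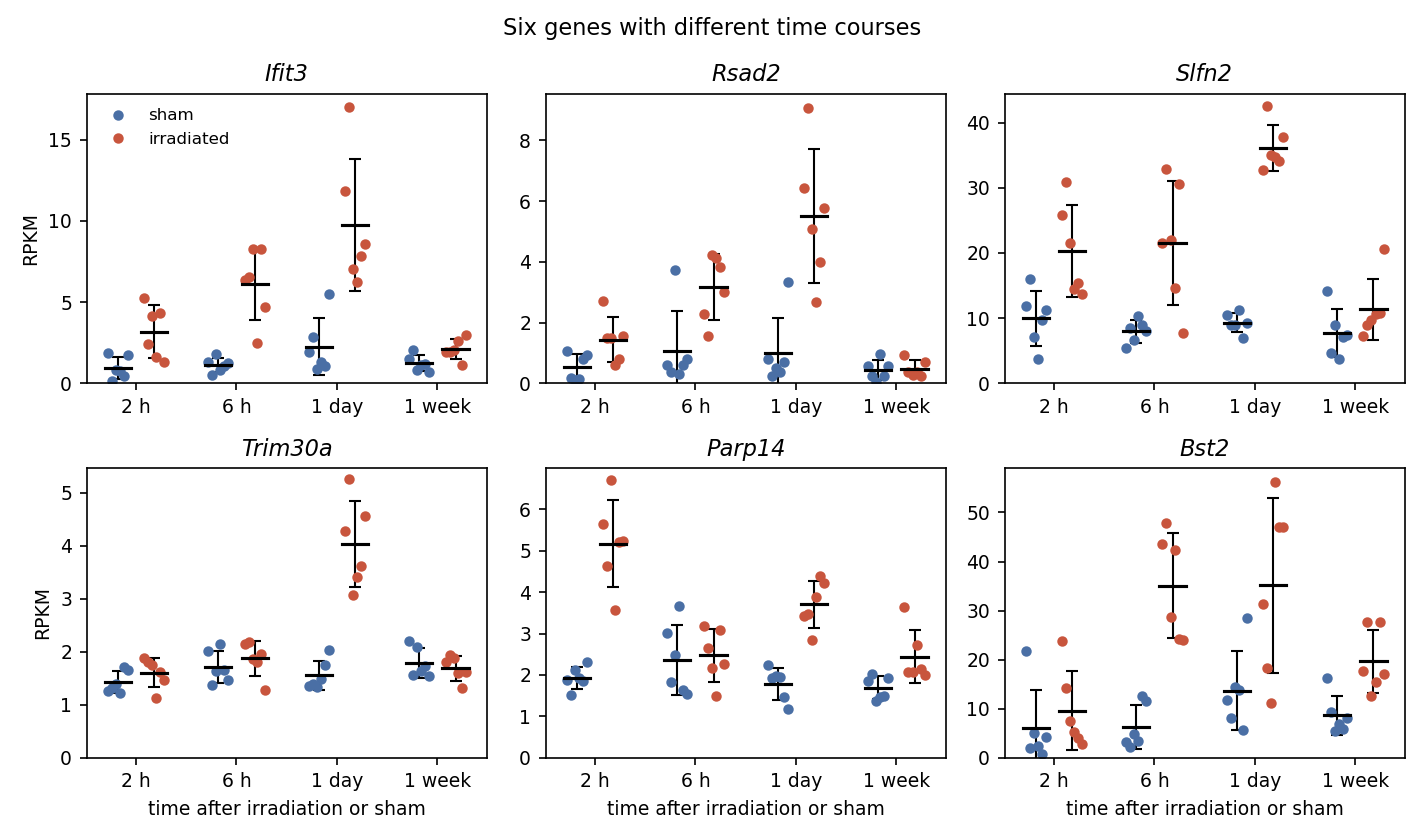
RPKM of 6 interferon-stimulated genes in every library, by time and group; lines mark the mean and bars the SD of 6 libraries, and the y axes differ. Trim30a is separated at 1 day alone, Parp14 at 2 h (3.56 to 6.72 against 1.51 to 2.30) and again at 1 day, and Ifit3, Rsad2 and Slfn2 reach their highest irradiated values at 1 day.

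Of the 4 large GTPases, Mx1 rose at 2 h, 6 h and 1 day and Gbp2 at 2 h. Mx1, known for blocking influenza virus and carried by C57BL/6 mice in a form that makes no working protein, lies at chr16:97447035-97462907. Its sham medians were 1.29, 1.39 and 1.72 RPKM and its irradiated medians 3.17, 3.93 and 7.02 at 2 h, 6 h and 1 day. At 6 h the groups did not overlap (1.12 to 2.22 and 2.67 to 6.31), and at 2 h and 1 day 5 of 6 irradiated libraries lay above every sham library. The changes were 0.89, 1.00 and 1.48, each ± 0.28 (adjusted p = 0.035, 0.0083 and 0.00034). The 2 h call was lost without any 1 of sham 2 h libraries 2, 5 and 6 or irradiated 2 h libraries 1, 2 and 3, where the change was 0.68 to 0.88. The Mx1 effect fell by 1.55 from 1 day to 1 week (adjusted p = 0.015).

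The guanylate-binding proteins, which attack the membranes of intracellular pathogens, moved less uniformly. Gbp2 rose by 0.75 ± 0.21 at 2 h (adjusted p = 0.013), a call lost without irradiated 2 h library 2 (0.54, adjusted p = 0.078). Gbp7 fell at 6 h by 0.44 ± 0.16 (adjusted p = 0.045), from a sham range of 1.42 to 3.86 RPKM (median 1.92) to an irradiated range of 0.960 to 1.45 (median 1.27). This call was lost without sham 6 h library 4, the one with 731819 reads (-0.30, adjusted p = 0.19), and without any 1 of 7 other 6 h libraries. At 1 week all 6 irradiated libraries of Gbp7 (3.16 to 5.04) lay above all 6 sham libraries (1.92 to 3.12), with a change of 0.48 ± 0.16 that missed the threshold (adjusted p = 0.078). It was the only 1 of the 31 genes so separated at 1 week, where 2.06% of all tested genes were. Gbp3 passed at no time.

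The membrane proteins Bst2 and Ifitm3 rose at 6 h. Bst2, or tetherin, which holds budding virus on the cell surface (chr8:71534255-71537456), ranged from 2.22 to 12.6 RPKM in sham 6 h libraries (median 4.14) and from 23.9 to 47.9 in irradiated ones (median 35.6). The groups did not overlap, and the change was 2.48 ± 0.46 (adjusted p = 9.9e-05). At 1 day the irradiated median was 39.2 and the sham median 12.8, but the ranges overlapped (11.2 to 56.2 and 5.64 to 28.5) and the change of 1.27 did not pass (adjusted p = 0.12). Bst2 is a marker of plasmacytoid dendritic cells as well. Siglech, the other tested marker of these cells and also expressed by microglia, changed by -0.54 at 6 h (adjusted p = 0.00046). At 1 day Siglech changed by -1.12 (adjusted p = 7.0e-10). The part of such cells in the Bst2 values was not tested.

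Ifitm3, which blocks virus entry from endosomes (chr7:141009586-141010770), had a sham 6 h range of 2.35 to 103 RPKM (median 12.3) that covered most of the irradiated range of 29.7 to 106 (median 73.9). The change was 2.07 ± 0.55 (adjusted p = 0.0051). The mitochondrial protein gene Ifi27l2a rose by 0.80 ± 0.28 at 6 h (adjusted p = 0.035), on 108 reads in all 48 libraries, and 7 of the 12 fits that each left out 1 library of 6 h lost this call.

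Slfn2, a Schlafen protein known in mice for keeping T cells and monocytes quiescent (chr11:83065112-83070678), rose at 2 h, 6 h and 1 day. Its sham medians were 10.5, 8.22 and 9.11 RPKM and its irradiated medians 18.4, 21.7 and 34.9. The 1 day ranges of 6.94 to 11.2 and 32.7 to 42.5 were far apart, and the change was 1.86 ± 0.28 (adjusted p = 5.3e-06). At 2 h and 6 h the ranges overlapped and the changes were 1.00 and 1.22, each ± 0.28 (adjusted p = 0.014 and 0.0011). The 2 h call was lost without sham 2 h library 4 (0.78, adjusted p = 0.063) or irradiated 2 h library 2 (0.87, adjusted p = 0.052). At 1 week the irradiated range was 7.21 to 20.5 and the sham range 3.73 to 14.1, and the change of 0.54 did not pass.

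Slfn5, a nuclear Schlafen protein, was near the detection limit of the filter. Its irradiated 1 day libraries ranged from 0.735 to 1.23 RPKM (median 0.869) and the sham ones from 0.0306 to 0.492 (median 0.286), without overlap, and the change of 0.60 ± 0.18 passed narrowly (adjusted p = 0.042). Slfn5 passed the filter through 7 irradiated and 0 sham libraries, and in the fit without the filter this call was lost (adjusted p = 0.065). The call was lost in 9 of the 12 fits that each left out 1 library of that day. At 1 week its change was 0.47 and missed the threshold (adjusted p = 0.14). Slfn8 passed at no time.

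Among the other members, Ifi35, a protein that binds transcription factors (chr11:101448407-101458698), had its largest change at 6 h. Its sham 6 h range of 1.05 to 3.27 RPKM (median 2.15) lay below the irradiated range of 4.62 to 7.41 (median 6.69), and the change was 1.30 ± 0.20 (adjusted p = 5.5e-06). At 1 day the change of 0.52 did not pass. Sp100, a component of nuclear bodies (chr1:85649988-85709998), ranged from 0.254 to 0.521 RPKM in sham 1 day libraries and from 0.647 to 1.93 in irradiated ones, with medians of 0.392 and 1.43 and a change of 0.76 ± 0.13 (adjusted p = 9.0e-05). Lgals3bp, a secreted glycoprotein, rose by 1.36 ± 0.24 at 1 day (adjusted p = 0.00011), where 6 of 6 irradiated libraries lay above every sham library. Its rise of 0.76 at 6 h was lost without sham 6 h library 1 (0.69, adjusted p = 0.052) or irradiated 6 h library 2 (0.59, adjusted p = 0.077).

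Xaf1, an interferon-induced antagonist of the apoptosis inhibitor XIAP, was separated at 1 day (sham 0.471 to 1.53 and irradiated 1.68 to 3.64 RPKM), yet its change of 0.95 ± 0.43 did not pass (adjusted p = 0.26). Xaf1 held 957 reads in sham 6 h library 3 and between 5 and 34 in the other 5 sham libraries of 6 h, and in the fit without sham 6 h libraries 1 to 4 the same 1 day change passed (adjusted p = 0.024). At 1 day 11 of the 31 genes had every irradiated library above every sham library, beside 2.29% of all tested genes. The counts were 2 at 2 h, 5 at 6 h and 1 at 1 week, beside 2.47%, 4.96% and 2.06%.

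The 5 genes under the filter were tested in a fit without it, over 27654 genes. In that fit 5, 14, 19 and 0 of the 36 rose at 2 h, 6 h, 1 day and 1 week, beside 1.98%, 5.03%, 1.18% and 0.528% of all genes. Without the filter Mx1 at 2 h (adjusted p = 0.075), Ifi27l2a at 6 h (adjusted p = 0.069) and Slfn5 at 1 day no longer passed, while Oasl1 passed at 6 h and 1 day and Rtp4 and Ifi44 at 1 day. Oasl1, known in mice as a repressor of Irf7 translation, had a sham 1 day range of 0 to 0.217 RPKM and an irradiated range of 0.261 to 1.05, a change of 0.54 ± 0.10 (adjusted p = 0.00043). At 6 h its sham range was 0 to 0.175 RPKM and its irradiated range 0.0736 to 0.813, with 5 of 6 irradiated libraries above every sham library and a change of 0.45 ± 0.10 (adjusted p = 0.0017). Rtp4, a chaperone of G protein-coupled receptors, rose by 0.34 ± 0.06 at 1 day (adjusted p = 0.00019), and the ratio of its mean RPKM was 3.44. It held 1844 reads in all libraries over a span of 93932 bases, of which 2131 are exon bases, and such a span lowers RPKM. That span shares positions with Masp1. Ifi44 rose by 0.18 ± 0.05 at 1 day (adjusted p = 0.025) on 76 reads in all libraries. Cmpk2, a mitochondrial nucleotide kinase, and Herc6, the main Isg15 ligase of mice, changed by 0.53 and 0.16 at 1 day and did not pass. The ratios of their mean RPKM at 1 day were 3.05 and 2.29, with 4 and 5 of 6 irradiated libraries above every sham library. Herc6 also has a long span, of 83633 bases.

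At 2 h the irradiated animals differed among themselves in the summed reads given above. Irradiated 2 h libraries 1, 2 and 3 had 23, 18 and 18 of the 36 genes above every sham library of that time, and libraries 4, 5 and 6 had 3, 6 and 7. The microglial markers named below summed to 28922, 31299 and 28324 RPM in libraries 1 to 3 and to 34731, 38493 and 40001 RPM in libraries 4 to 6, and their part in this split was not tested. At 1 day the 6 libraries had 27, 28, 19, 29, 29 and 29 such genes, at 6 h 18, 21, 17, 10, 19 and 10, and at 1 week 20, 9, 5, 13, 14 and 18. The same shares over all genes are not given here for single libraries, so no result is read from these counts. Library 2 of the irradiated 2 h group held 395761 reads, and without it 3 genes rose at 2 h (Ifit1, Ifit3 and Parp14) in place of 6. Fitted on the 12 libraries of 2 h alone, 1 gene, Parp14, rose. In sham animals limma's F test over the 4 times passed for 2 of the 31 genes, Ifit2 and Gbp7, beside 21.1% of all tested genes. This test includes the divided sham group of 6 h, and it passed for 1 gene without libraries 1 to 4 and for 4 without libraries 5 and 6. Ifit2 lay at 1.64 to 3.13 RPKM in sham 6 h libraries 1 to 4 and at 0.185 to 0.401 RPKM in libraries 5 and 6. Single sham libraries still spread widely, with Ifitm3 between 2.35 and 103 RPKM and Xaf1 between 0.346 and 33.3 RPKM over the 24.

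The interferon genes themselves were hardly detected. Ifna1, Ifna4, Ifna5, Ifnl2 and Ifnl3 were listed at 0 in all 48 libraries, Ifna2 had 1 read, Ifng 2 and Ifnb1 17, the last spread over 12 libraries of both treatments. At these counts a difference between the groups was not detectable. The receptor gene Ifnar1 rose at 2 h by 0.65 ± 0.15 (adjusted p = 0.0025), from a mean of 6.97 to 11.6 RPKM, and the gamma receptor gene Ifngr2 rose at 6 h by 0.66 ± 0.17 (adjusted p = 0.0033), from 11.2 to 18.1. Against sham 6 h libraries 5 and 6 alone, 0 of the 4 tested receptor genes passed at 6 h, so the call of Ifngr2 was lost. Ifnar2 and Ifngr1 passed at no time, and Ifnlr1 had 2 reads.

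Of a list of 49 further genes of the pathway, 48 were in the table and 32 were tested. Of these 6 rose and 1 fell at 2 h, 10 and 2 at 6 h, 8 and 1 at 1 day, and 2 and 1 at 1 week, beside the shares of all genes given above. The genes named below belong to 12 tested ones grouped as other interferon-induced genes, of which 7 rose at 6 h with all 6 sham libraries. Without sham 6 h libraries 1 to 4, 3 of the 12 rose at 6 h, so not all of the 6 h rises below were kept. Dhx58, an RNA sensor of the RIG-I family, rose by 0.76 at 6 h and 1.89 ± 0.23 at 1 day (adjusted p = 5.1e-08), from 1.74 to 6.07 in sham libraries to 8.73 to 23.4 in irradiated ones. Its effect then fell by 2.59 to 1 week (adjusted p = 1.1e-06).

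Cxcl10, a chemokine induced by interferon and by NF-kB, had its largest change at 2 h. Its sham 2 h libraries ranged from 0 to 12.9 RPKM (median 3.54) and its irradiated ones from 137 to 378 (median 244), a change of 5.76 ± 0.43 (adjusted p = 4.2e-14), and the changes at 6 h and 1 day were 2.21 and 1.52. Tap1, a peptide transporter of antigen presentation, changed by 2.10 ± 0.20 at 2 h (adjusted p = 8.3e-11), 1.14 at 6 h, 0.93 at 1 day and 0.86 at 1 week, and passed each time. Ccl12, a monocyte-attracting chemokine of mice, rose by 1.66, 2.21 and 2.12 at the first 3 times.

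Zbp1, a sensor of Z-form nucleic acid, rose by 1.14 at 6 h and 1.20 at 1 day, and changed by -0.11 at 2 h. Ifi204, a DNA-binding protein, rose by 0.50, 0.49 and 0.90 at 2 h, 6 h and 1 day. Irgm1, an immunity-related GTPase, passed at 1 week alone, with a change of 1.00 ± 0.20 (adjusted p = 0.0021). Without sham 6 h libraries 1 to 4, 3 of the 32 genes passed at 6 h in place of 12.

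Markers of other cells were low beside those of microglia. The 7 microglial markers summed to 31366 to 40285 RPM in sham and 21236 to 30943 RPM in irradiated libraries at 1 day, without overlap. Of them P2ry12, Csf1r, Cx3cr1 and Sall1 fell at that time. At 6 h they summed to 37285 to 42045 RPM in sham and 29381 to 32331 RPM in irradiated libraries, again without overlap. The 5 markers of perivascular macrophages summed to 107 to 171 RPM in sham and 35.2 to 76.6 RPM in irradiated 6 h libraries. Of them 2 were tested, and at 6 h Mrc1 fell by 0.64 (adjusted p = 1.3e-05) while Pf4 changed by 1.49 ± 0.80 without passing (adjusted p = 0.19). Also at 6 h the endothelial marker Ly6a rose by 0.78 (adjusted p = 0.048), while Cldn5, the other endothelial marker tested, changed by -0.14 (adjusted p = 0.86). The 5 endothelial markers summed to 27.7 to 69.4 RPM in sham and 25.9 to 61.5 RPM in irradiated 6 h libraries. The astrocyte marker Aldoc rose by 0.70 at that time (adjusted p = 0.027). The 5 astrocyte markers summed to 11.1 to 24.6 RPM in sham 6 h libraries 1 to 4 and to 37.7 and 36.1 RPM in libraries 5 and 6. In irradiated 6 h libraries they summed to 31.3 to 68.8 RPM. The part of these markers in the 6 h results was not tested. The 8 markers of monocytes and neutrophils summed to 12.9 to 51.3 RPM in sham and 25.1 to 91.9 RPM in irradiated 1 day libraries. The sham value of 51.3 was that of library 6, with 175382 reads, and the other 5 sham libraries, at 12.9 to 23.3 RPM, lay below every irradiated library. Ly6g and Retnlg had 0 reads in all 48 libraries. Of the 8 markers 2 were tested, and at 1 day Plac8 rose (0.79, adjusted p = 0.016) while Ccr2 changed by -0.04 (adjusted p = 0.96). The part of these cells in the rises at 1 day was not tested. The 7 lymphocyte markers summed to at most 3.97 RPM at 1 day. Of the 5 markers of plasmacytoid dendritic cells, Bst2 is a member here and Siglech is also expressed by microglia, and the other 3 (Ccr9, Ly6d and Klk1) summed to 2.91 to 10.6 RPM in sham and 1.06 to 8.35 RPM in irradiated 1 day libraries. Mitochondrial genes took 6.14% to 14.6% of the reads in irradiated 2 h libraries and 3.05% to 9.34% in sham 2 h libraries. At 6 h they took 5.88% to 7.11% in sham 6 h libraries 1 to 4, 3.27% and 3.09% in sham 6 h libraries 5 and 6, and 2.35% to 4.34% in irradiated 6 h libraries. At 1 week they took 1.42% to 2.36% in sham and 2.56% to 4.38% in irradiated libraries, without overlap. Their part in the results at these times was not tested.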

How the data were processed

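Microglial RNA was sequenced in 48 libraries, 6 per group. STAR 2.6.1d and featureCounts 1.5.1 are named in the submitters' processing notes, beside bcl2fastq 2.20.0, FastQC 0.11.8 and the builds mm10 and GRCm38. The annotation and strand use are not given in the sources used here, so overlapping genes and antisense partners cannot be told apart. The authors deposited RPKM per gene. The deposited RPKM values were found to be whole reads divided by the gene span and by a total that in general belonged to another library. Reads were recovered from them, with 100% of 719081 values whole within 0.001 reads, and RPKM was recomputed with each library's own total. The ratio of deposited to recomputed RPKM ran from 0.436 to 3.11 (5th to 95th percentile).

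Genes with an RPKM of at least 1 in at least 6 libraries were kept (10132). Log2(RPKM + 1) was fitted with limma 3.58.1 in R 4.3.3, with 8 group means over 48 libraries and 40 residual degrees of freedom, trended and robust variance moderation, and Benjamini-Hochberg adjustment at 0.05. The test was tried on simulated data first. Levels are given for groups of 6 as lowest, median and highest. Every one of the 36 genes was accounted for; lowest, median and highest values were to be given for the 2 genes of each role with the smallest p in limma's F test over the 4 irradiated-minus-sham contrasts, and up to 8 pathway genes were named by the same F test, beside every ligand and receptor. 1 of these pathway genes is not reported here. Values by library of Ifit2, Xaf1 and Oasl1 were added after they were seen. The 36 genes and the pathway and marker lists were chosen with earlier results of these data known. Same-numbered sham and irradiated libraries of a time correlated between -0.107 and 0.137 in their deviations, so the numbers were not taken as pairs. P-values measure the spread between these libraries, 1 per animal. Promoter sequences are from RefSeq.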

Additional observations from a re-analysis of the deposited data

Results flagged for a closer look

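Single libraries stood apart from the other 5 of their group in 16 of 248 combinations of gene and group (6.45%), by a gap to the nearest library that was too large a share of the group's range on the log2 scale by Dixon's 95% critical value for 6 samples, where chance gives about 1 in 20. In sham 1 day library 6, which held 175382 reads, these were Irf9 (45.9 RPKM), Rsad2 (3.33), Gbp7 (1.15) and Slfn8 (1.22). In the 6 h sham group they were Eif2ak2 in library 1 (2.98 RPKM), Rsad2 (3.72) and Xaf1 (33.3) in library 3, and Gbp7 in library 4 (3.86). In the 2 h sham group they were Slfn8 in library 2 (1.84 RPKM) and Xaf1 in library 5 (6.78). Among irradiated libraries they were Gbp3 in 2 h library 1 (2.93 RPKM), Parp9 in 2 h library 2 (4.44), Slfn8 in 6 h library 4 (1.32), Sp100 in 1 week library 1 (0.963), Parp9 in 1 week library 2 (1.02) and Dtx3l in 1 week library 5 (4.29).

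The effect of irradiation differed between adjacent times, by a test of the difference in log2(RPKM + 1), in 15 cases. From 2 h to 6 h it did so for Parp14 (-1.0). From 6 h to 1 day it did so for Ifit2 (1.31), Trim30a (0.89), Parp9 (0.90), Parp14 (0.70) and Gbp7 (0.90). From 1 day to 1 week it did so for Irf9 (-1.38), Stat2 (-1.04), Ifit3 (-1.31), Rsad2 (-1.73), Trim30a (-1.02), Parp9 (-0.75), Mx1 (-1.55), Slfn2 (-1.32) and Sp100 (-0.74).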

How the results depend on the processing

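No gene that passed changed direction under an alternative run. Among genes that did not pass at 6 h, 6 changed sign with the sham 6 h libraries left out, and Ifit2, for example, went from -0.08 to 0.81 without libraries 1 to 4. With the RPKM values as deposited, 0, 0 and 4 of the 31 genes rose at 2 h, 6 h and 1 day, 0 fell at 2 h and 6 h, 0 passed in each difference between adjacent times and 0 over time in sham animals; over all genes 52, 64, 39 and 11 passed at the 4 times, and of the pathway list 1, 0, 1 and 0. With each time fitted alone, 1 rose and 0 fell at 2 h, 1 fell at 6 h and 3 rose at 1 week (Irf7, Gbp7 and Bst2); 513 of all genes passed at 2 h and 259 at 1 day, and 7 and 5 of the pathway list at 6 h and 1 week. With limma-voom on the recovered reads, 0 fell at 2 h, 1 fell at 6 h, 2 rose at 1 week (Gbp7 and Slfn5) and 3 effects rose from 6 h to 1 day, with 709 of all genes and 5 of the pathway list at 1 week. On log2(RPM + 1), 1 rose at 1 week and 4 varied in sham animals. Without a filter, Mx1 at 2 h (adjusted p = 0.075), Ifi27l2a at 6 h (0.069) and Slfn5 at 1 day (0.065) no longer passed, 1 fell at 6 h, 3 effects rose from 6 h to 1 day and 235 of all genes passed at 1 week. A filter on mean reads gave 1 effect that rose from 2 h to 6 h. Without the 3 libraries under 1000000 reads, 3 rose at 2 h, 1 fell at 6 h, 1 rose at 1 week, and 1 and 2 effects rose from 2 h to 6 h and from 6 h to 1 day. Without sham 6 h libraries 1 to 4, 3 rose and 0 fell at 6 h, 0 effects fell from 2 h to 6 h, 1 rose from 6 h to 1 day and 1 gene varied in sham animals, with 212 of all genes and 3 of the pathway list at 6 h. Without sham 6 h libraries 5 and 6, 3 effects rose and 2 fell from 2 h to 6 h, 1 fell from 6 h to 1 day and 4 genes varied in sham animals. The cause was not tested. Median-of-ratios scaling and a pseudocount of 0.1 kept every count within 1.5 times, although with the latter Irf7 at 6 h and Slfn5 at 1 day no longer passed.

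Leaving out 1 library at a time, 3 to 7 genes rose and 0 to 1 fell at 2 h, 11 to 15 rose and 1 to 2 fell at 6 h, 16 to 18 rose at 1 day and 0 to 1 at 1 week. Effects that rose numbered 0 to 3 from 2 h to 6 h and 3 to 6 from 6 h to 1 day, those that fell 1, 0 to 1 and, from 1 day to 1 week, 7 to 10, and 2 to 4 genes varied in sham animals. Over all genes 732 to 926, 1629 to 2537, 343 to 495 and 137 to 495 passed at the 4 times, and of the pathway list 5 to 8, 9 to 14, 7 to 10 and 3 to 4.

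With the replicate number as a block, 1 gene fell at 6 h in place of 2, and no other count of these genes moved by over 1.5 times. The numbers are not known to pair the animals: 2 of 24 same-numbered pairs correlated above 0.1, and 7 of 24 correlated best with their own number.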
